A study of Mus musculus with 2 samples.

Results

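Type 1 conventional dendritic cells (type 1 cells below) were described in 2 single-cell RNA libraries of mouse gingiva, the gum tissue around the teeth. A cell was taken as type 1 when it carried at least 2 unique molecular identifiers (UMIs, each 1 captured transcript) of Xcr1 and Clec9a together and fewer than 3 of Ccr7 and Fscn1 together. It also had to hold at least 100 of 10000 UMIs from Cd74, H2-Aa and H2-Ab1, under 3% from S100a8 and S100a9, under 10 of 10000 from C1qa, C1qb and C1qc, and 0 UMIs of Cd3e and Cd79a. The members were thus chosen by measured UMI counts of these genes, so those counts are no finding here. The rule took 352 of 21208 cells, 174 of 10948 in the normoglycemic library and 178 of 10260 in the diabetic library.

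Both libraries came from mice labelled CD11CCre-/-;FoxoLL on a mixed C57B6 and FVB background, in which loxP sites flank exon 2 of Foxo1 and the labels call the Foxo1 protein normal, since no Cre is present. Diabetes had been induced with streptozotocin, a toxin for the insulin-producing cells, in the diabetic group. Per the labels, bacteria-induced inflammation lasted 2 weeks and a waiting period 2 weeks. Cells from 4 mice per group were pooled into 1 library, sorted as live CD45+ leukocytes without endothelial or red blood cells, with 20% enrichment of CD11c+ cells. With 1 library a group, no difference between conditions has a replicate check, and every interval below is a 95% interval of counting error only, since cells are not replicates.

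Conventional dendritic cells carry antigen from tissues to lymph nodes and prime T cells. The type 1 subset depends on the transcription factors IRF8 and BATF3. It takes up dead cells through receptors such as CLEC9A, presents their proteins to CD8 T cells on MHC class I (cross-presentation), senses double-stranded RNA through TLR3, and meets lymphocytes through XCR1, the receptor for the chemokine XCL1. The type 2 subset depends on IRF4 and mainly primes CD4 T cells, and cells of either subset that have matured turn on CCR7 to leave the tissue.

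The markers bore out the label. Levels are CPM, the UMIs of a gene per 1000000 UMIs of the summed cells of a class, and they compare a gene between classes, not genes with each other. Xcr1, used by the rule, stood at 245.4 CPM in normoglycemic and 170.1 CPM in diabetic type 1 cells, with a median of 4 and 3 UMIs a cell. Clec9a, also used by the rule, stood at 124.5 and 119.4 CPM. Of the markers that the rule did not use, Naaa, a lysosomal amidase, reached 1412 and 1374 CPM against 318.7 and 274.9 CPM in type 2 cells. Irf8 reached 951.8 and 798.6 CPM against 38.42 and 30.22 CPM, and Batf3 reached 122.3 and 149.7 CPM against 61.67 and 53.61 CPM. Naaa was at 0 UMIs in 1 normoglycemic and 2 diabetic type 1 cells, Irf8 in 4 and 6, and Batf3 in 30 and 26. Type 2 cells were 511 and 324 cells that passed the same gates with 0 UMIs of Xcr1 and Clec9a and at least 3 of Cd209a, Mgl2 and Clec10a.

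**Figure D1:**
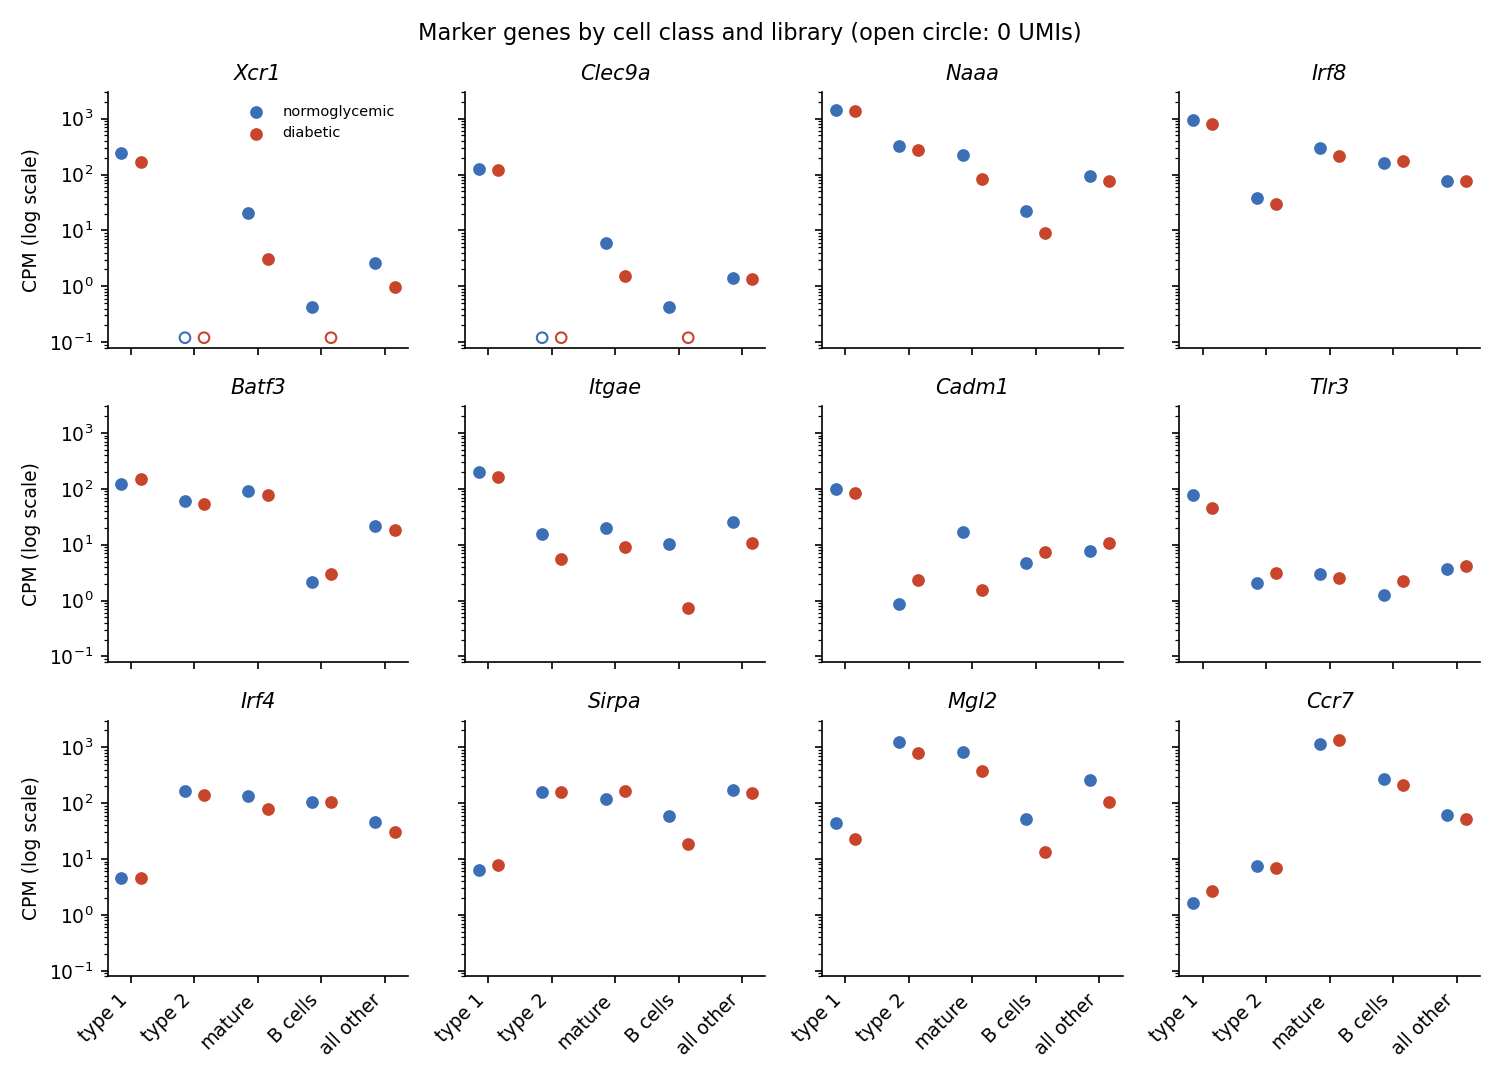
Levels (CPM, log axis) of 12 marker genes in 5 cell classes, with 1 point for each library and an open circle for 0 UMIs. Naaa, Irf8, Itgae, Cadm1 and Tlr3 were higher in type 1 cells than in the other 4 classes in both libraries, and Irf4, Sirpa and Mgl2 were lower there than in type 2 cells.

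The genes that defined the cells for the rule sit on 2 chromosomes: Xcr1 at chr9:123852315-123862029 and Clec9a at chr6:129408862-129424763 (GRCm38, GENCODE vM21). The 250 bases before the start of each are shown because these promoters belong to the genes that set the class apart (RefSeq, GRCm38.p6, chr9:123862030-123862279 on the minus strand and chr6:129408612-129408861 on the plus strand). Both were searched on both strands for GAAA repeated with any 2 bases between (the GAAA repeat), a form read by interferon regulatory factors, and for TGANTCA, the site of AP-1 factors, the family of BATF3. Capitals would mark a match.
Xcr1: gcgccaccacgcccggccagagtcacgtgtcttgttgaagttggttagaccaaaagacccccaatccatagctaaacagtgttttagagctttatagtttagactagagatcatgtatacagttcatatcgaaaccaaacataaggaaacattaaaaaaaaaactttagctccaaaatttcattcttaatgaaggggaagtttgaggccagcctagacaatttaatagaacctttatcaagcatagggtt
Clec9a: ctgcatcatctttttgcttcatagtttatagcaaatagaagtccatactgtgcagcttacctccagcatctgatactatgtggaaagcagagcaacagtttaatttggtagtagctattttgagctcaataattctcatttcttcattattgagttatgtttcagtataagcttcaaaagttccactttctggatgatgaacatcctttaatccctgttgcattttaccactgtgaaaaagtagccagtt
Neither motif was present in these windows. Among all 32851 promoter windows of that length, 2.98% held the GAAA repeat and 6.75% held TGANTCA, and none of the 5 class markers held either.

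Depth was alike in the 2 sets of cells. They held 3671859 and 3727693 UMIs, with a median of 19926.5 UMIs a cell (3131 to 44602) in the normoglycemic and 19701.5 (4606 to 48018) in the diabetic library, and medians of 3504.5 and 3493 genes. The mitochondrial share had a median of 2.03% and 1.48%. Both libraries shared 32 barcodes in all and none among the type 1 cells. At the edge of the rule, 16 normoglycemic and 30 diabetic cells held exactly 2 UMIs of Xcr1 and Clec9a, and 30 and 48 otherwise alike cells held 1 UMI and were left out. Naaa was at 1121 and 1013 CPM just inside and at 638.6 and 844.2 CPM just outside, and Irf8 at 654.4 and 704.5 CPM against 423.7 and 524.8 CPM. Both markers were seen in 136 normoglycemic and 128 diabetic cells. Clec9a without Xcr1 was seen in 11 normoglycemic cells (6.32%, 3.20 to 11.03) and 27 diabetic cells (15.2%, 10.2 to 21.3), and Xcr1 without Clec9a in 27 (15.5%) and 23 (12.9%).

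As a share of all cells, type 1 cells were 1.59% (1.36 to 1.84) in the normoglycemic and 1.73% (1.49 to 2.01) in the diabetic library, a difference of 0.146 percentage points (-0.199 to 0.494). The sort enriched CD11c+ cells, which sets part of this share. Among all cells that passed the same gates, type 1 cells were 14.8% (12.8 to 16.9) and 18.3% (15.95 to 20.9), 3.56 points apart (0.414 to 6.75). Within the dendritic classes they were 21.4% (18.7 to 24.4) of the type 1, type 2 and mature cells in the normoglycemic and 28.6% (25.1 to 32.4) in the diabetic library, 7.19 points apart (2.68 to 11.7). Against type 2 cells alone the shares were 25.4% and 35.5%, 10.1 points apart (4.77 to 15.4). The counts of type 1 cells were nearly equal, whereas type 2 cells numbered 511 and 324. That class is counted by UMIs of Cd209a, Mgl2 and Clec10a, and within it Cd209a was itself lower in the diabetic library, at 635.6 and 175.1 CPM with a UMI in 76.7% and 37.4% of cells, as was Mgl2 at 1249 and 794.3 CPM, whereas Clec10a stood at 199.3 and 280.5 CPM. Their part in the lower count was not tested.

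Compared with type 2 cells, 381 of 5025 measured genes (7.58%) were at least 1.5-fold higher in type 1 cells in both libraries and 749 (14.9%) at least 1.5-fold lower. Both classes were gated on expression, so this is a description. Measured means at least 20 CPM in a library. A list of type 1 identity genes had 23 measured members here, of which 20 were higher in both libraries and 0 lower. For Xcr1 and Clec9a, which type 2 cells lack by rule, the direction was fixed in advance. Gcsam, a signalling adaptor of lymphoid cells, held 247 and 339 UMIs in type 1 cells and 0 in type 2 cells of either library, so it was at least 205-fold and 155-fold higher, taking 3 UMIs over the class as the limit of a count of 0. Cadm1, an adhesion molecule, was 113-fold (56.9 to 264) higher in the normoglycemic and 35.3-fold (19.9 to 69.1) in the diabetic library. Irf8 was 24.8-fold and 26.4-fold higher, and Btla, an inhibitory receptor, 23.5-fold and 11.7-fold.

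Itgae, the CD103 integrin chain of barrier tissue type 1 cells, was 12.9-fold and 28.9-fold higher than in type 2 cells. Ppt1, a lysosomal thioesterase, was 12.1-fold and 10.2-fold higher. Other genes with large differences were the acyltransferase gene Agpat3 (31.8-fold and 21.1-fold), the homeobox gene Barx2 (63.7-fold and 15.6-fold), Txndc16 (14.8-fold and 8.45-fold), Sept3 (7.62-fold and 12.8-fold), Cystm1 (10.9-fold and 9.81-fold), Tbc1d8 (8.55-fold and 9.63-fold), Gpr141b (9.72-fold and 11.5-fold) and Ifi205 (13.7-fold and 6.86-fold). In the opposite direction, type 1 cells had little Irf4, at 4.63 and 4.56 CPM against 164.5 and 139.4 CPM in type 2 cells. Mrc1, the mannose receptor, was 26.6-fold and 57.8-fold higher in type 2 cells, Il7r 40.3-fold and 28.4-fold, Tmem176b 21.7-fold and 31.3-fold and Ear2 28.8-fold and 24.3-fold. Lpl, Retnla and Cd209d stood at 135, 642.7 and 226.4 CPM in normoglycemic type 2 cells and at 2.996, 14.98 and 7.353 CPM in normoglycemic type 1 cells, with 2 UMIs each in diabetic type 1 cells. Mmp12 and Fcrls had 3 and 5 UMIs in normoglycemic and 0 in diabetic type 1 cells, against 221.4 and 263.8 CPM in normoglycemic type 2 cells.

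Of the 15 genes named here for their excess over type 2 cells, 9 had a promoter in the RefSeq table, and 2 of those held the GAAA repeat, in capitals below with its 2 middle bases. They are shown because that motif is read by the family of IRF8, whose gene is itself on the list. The windows are the 200 bases before the start, at chr1:174031756-174031955 for Ifi205 and chr13:19732952-19733151 for Gpr141b, both on the minus strand (GRCm38.p6). A match is a description and not a known binding site.
Ifi205: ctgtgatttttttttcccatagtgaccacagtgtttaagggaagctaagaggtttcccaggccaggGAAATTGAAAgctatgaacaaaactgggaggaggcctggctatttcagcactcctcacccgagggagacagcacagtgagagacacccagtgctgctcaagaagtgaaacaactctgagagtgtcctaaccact
Gpr141b: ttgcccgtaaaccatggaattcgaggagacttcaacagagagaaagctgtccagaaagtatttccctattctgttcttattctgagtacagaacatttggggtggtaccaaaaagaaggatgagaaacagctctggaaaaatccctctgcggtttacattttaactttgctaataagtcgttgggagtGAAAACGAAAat
The match began 134 bases before the start in Ifi205, an interferon-inducible gene, and 12 bases before it in Gpr141b, annotated as a noncoding RNA. TGANTCA was in 0 of these 9 windows.

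Between conditions, most genes of type 1 cells lay close together. Of 4959 genes measured, 203 (4.09%) were at least 1.5-fold higher and 256 (5.16%) at least 1.5-fold lower in the diabetic library, and the median log2 ratio over all of them was 0.01. Ratios are diabetic over normoglycemic throughout. The clearest group on the higher side was histone genes. On the lower side stood Cd207, the gene of the lectin langerin, with Ccl17, Mfge8 and Fosb. The shares of 4.09% and 5.16%, and for type 2 cells those given next, are the background against which each count of a gene list below is read. Type 2 cells had similar totals, with 211 of 5231 genes (4.03%) higher and 276 (5.28%) lower. Of the genes with at least 50 CPM, an interval wholly beyond 1.5-fold and a level of at least 0.5 times that of the other cells, 29 were higher and 29 lower, and the first 15 of each are named below.

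**Figure D2:**
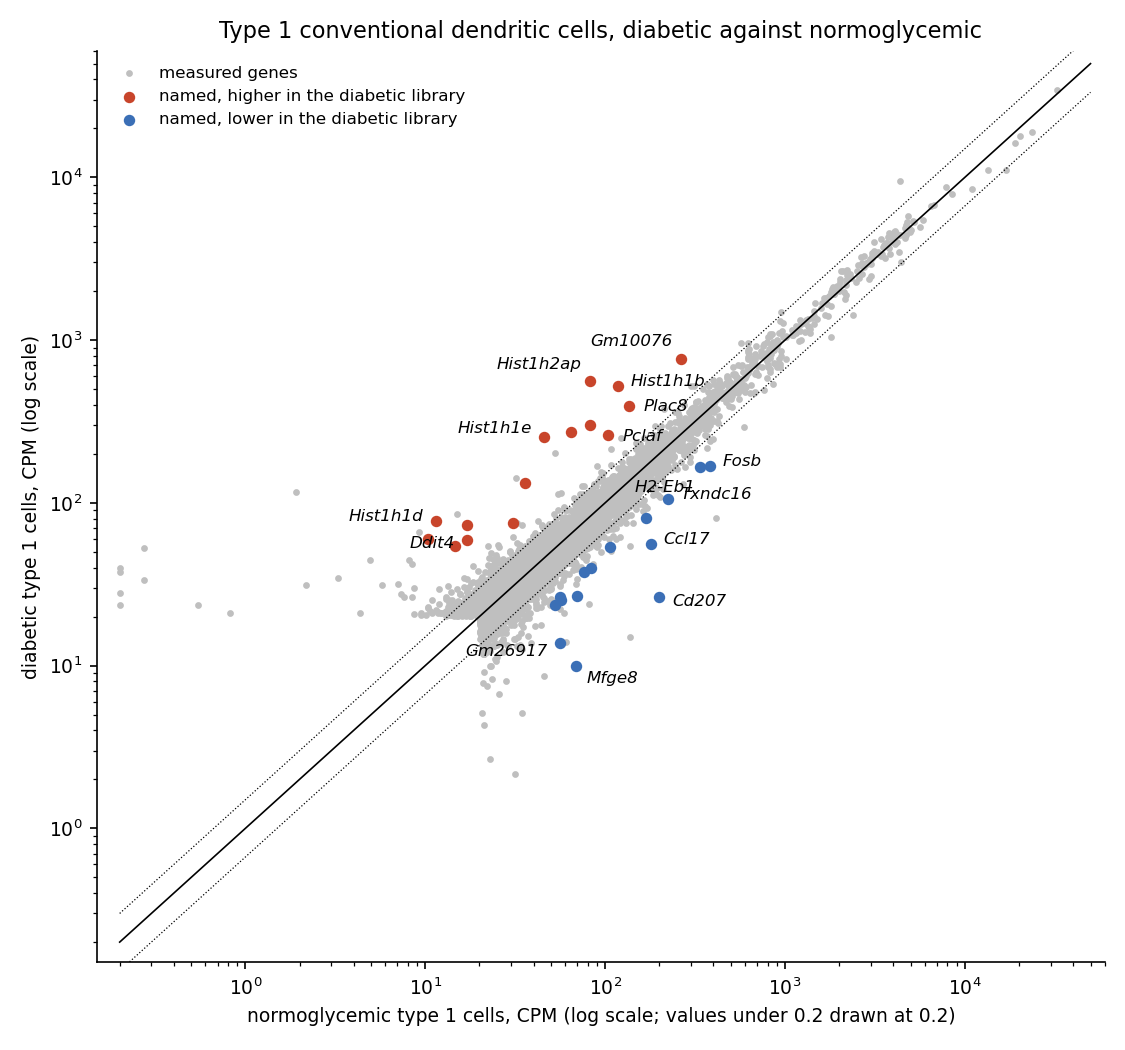
Level of each of 4959 measured genes in normoglycemic (x axis) and diabetic (y axis) type 1 cells, in CPM on log axes, with the line of equality and dotted lines at 1.5-fold. The 15 named higher genes, mostly histones, lie above the dotted lines and the 15 named lower genes, led by Cd207 and Mfge8, below.

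Most type 1 identity genes lay within 1.5-fold, and those that did not were lower. Among the 24 measured type 1 identity genes, 0 passed 1.5-fold on the higher side and 4 on the lower side in the diabetic cells, beside 4.09% and 5.16% of all genes. Ratios were below 1 in 18 of the 24, and the median log2 ratio was -0.26. The 4 were Cd207, Tlr3, Cd36 and Plpp1, the last named after its values were seen. Id2, a repressor needed for type 1 development, was at 1101 and 1148 CPM, a ratio of 1.04 (0.999 to 1.09). Naaa had a ratio of 0.973 (0.936 to 1.01), Irf8 0.839 (0.799 to 0.881), Ppt1 0.759 (0.722 to 0.799) and Batf3 1.22 (1.08 to 1.39). Xcr1 had a ratio of 0.693 (0.625 to 0.768), just short of the 1.5-fold line, and Clec9a 0.959 (0.840 to 1.10), but both are genes of the rule. Gcsam had the largest ratio of the list, 1.35 (1.14 to 1.60). Of 12 genes shared by dendritic cells, 0 were past 1.5-fold in either direction. Cst3 (cystatin C) went from 20389 to 17915 CPM, the transcription factor gene Spi1 from 299.8 to 301.3, Sept6 from 242.7 to 194.5 and the growth factor receptor gene Flt3 from 133.4 to 123.4, while Ikzf1 and Kmo had the largest ratios (1.42 and 1.28) and Kit and Zbtb46 the smallest (0.743 and 0.761).

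Tlr3, the endosomal sensor of double-stranded RNA, was lower in the diabetic cells, at 44.53 CPM against 78.71 CPM, a ratio of 0.566 (0.465 to 0.687). It had a UMI in 84 of 178 diabetic and 111 of 174 normoglycemic cells, and after each cell was thinned to 2000 UMIs in 9.55% (5.66 to 14.9) and 14.4% of cells, beside 0 of 168 diabetic and 1 of 324 normoglycemic B cells. The difference of the thinned shares, -4.82 points (-11.7 to 2.03), was within counting error. The gene was near absent elsewhere, at 3.119 and 2.074 CPM in diabetic and normoglycemic type 2 cells. Of 8 measured Toll-like receptor and adaptor genes 0 were higher and 3 lower by 1.5-fold: Tlr3, Tlr2 (34.04 to 15.83 CPM) and Irak2 (29.41 to 19.05 CPM, named after its values were seen). Cd14 (310.7 to 331.3 CPM), Unc93b1, the chaperone that carries Toll-like receptors to endosomes (213.8 to 222.9), Irf5 (159.3 to 140.6) and Myd88 (48.48 to 58.21) lay within 1.5-fold.

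The genes of MHC class II presentation had a median log2 ratio of -0.29 over 15 members, with 1 at least 1.5-fold higher and 2 lower. The most abundant were lower by less than that. The invariant chain gene Cd74 went from 23610 to 19113 CPM (ratio 0.810), H2-Aa from 13523 to 11064 (0.818), H2-Ab1 from 10993 to 8456 (0.769) and H2-DMb1 from 884.6 to 714.7. The first 3 are part of the rule, which sets only a minimum for their sum. H2-Eb1, a class II beta chain, was lower by more, from 335.0 to 166.3 CPM, a ratio of 0.497 (0.4501 to 0.547). A single normoglycemic cell held 140 of its 1230 UMIs (11.4%), and 3 held 32.1%. Without the UMIs of the 3 highest cells of each library the ratio was 0.684, within 1.5-fold. The share of thinned cells with a UMI was 29.3% and 31.5%, against 26.2% and 20.8% of B cells, which also express the gene. H2-Ob, part of the inhibitor of peptide loading in endosomes, had a ratio of 0.603. Lgmn, an endosomal protease, was higher, at 44.26 against 24.51 CPM (ratio 1.81, 1.39 to 2.36), and Ifi30, a thiol reductase for antigen, had a ratio of 1.30 (1.23 to 1.37).

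MHC class I presentation, the pathway for which these cells are known, differed little: of 22 members 1 was higher and 0 lower by 1.5-fold, with a median log2 ratio of -0.06. H2-D1 (2998 to 2467 CPM), B2m (1296 to 1116) and H2-K1 (902.5 to 686.5) were all under 1.5-fold lower, and the immunoproteasome gene Psmb8 stood at 821.9 and 1062 CPM, a ratio of 1.29 (1.23 to 1.36). Ide, a peptidase, passed 1.5-fold (28.87 to 44.53 CPM), and H2-Q6 and H2-Q7 had the smallest ratios, 0.691 and 0.6998. Against type 2 cells, 7 members passed 1.5-fold on the higher side in both libraries, and 0 on the lower side.

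Among 19 genes of cross-presentation and dead-cell uptake, 0 were higher and 2 lower by 1.5-fold, Cd36, a scavenger receptor for dying cells (106.2 to 68.68 CPM, ratio 0.647, 0.550 to 0.759), and Cybb, the NADPH oxidase subunit (41.40 to 22.53 CPM). Wdfy4, required for cross-presentation by type 1 cells, had a ratio of 0.766 (0.715 to 0.821), at 506.8 and 388.2 CPM. Cyba (670.5 to 736.1 CPM), Rab43 (266.4 to 207.4), Ncf4 (236.1 to 232.0), Rac2 (ratio 1.33) and Sec61a1 (1.23) were within 1.5-fold. Of 16 genes of costimulation and checkpoints, 15 had a ratio below 1, with 1 higher and 1 lower by 1.5-fold. Tnfsf9, the 4-1BB ligand, was the higher one (74.08 to 126.6 CPM, ratio 1.71, 1.47 to 1.99), and Cd80 the lower one (36.77 to 19.85 CPM). Cd83 went from 600.0 to 479.4 CPM, Cd47 from 448.3 to 446.4, the phosphatidylserine receptor gene Havcr2 from 207.5 to 149.2, Slamf7 from 205.9 to 163.9, and Pvr had a ratio of 0.684.

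**Figure D3:**
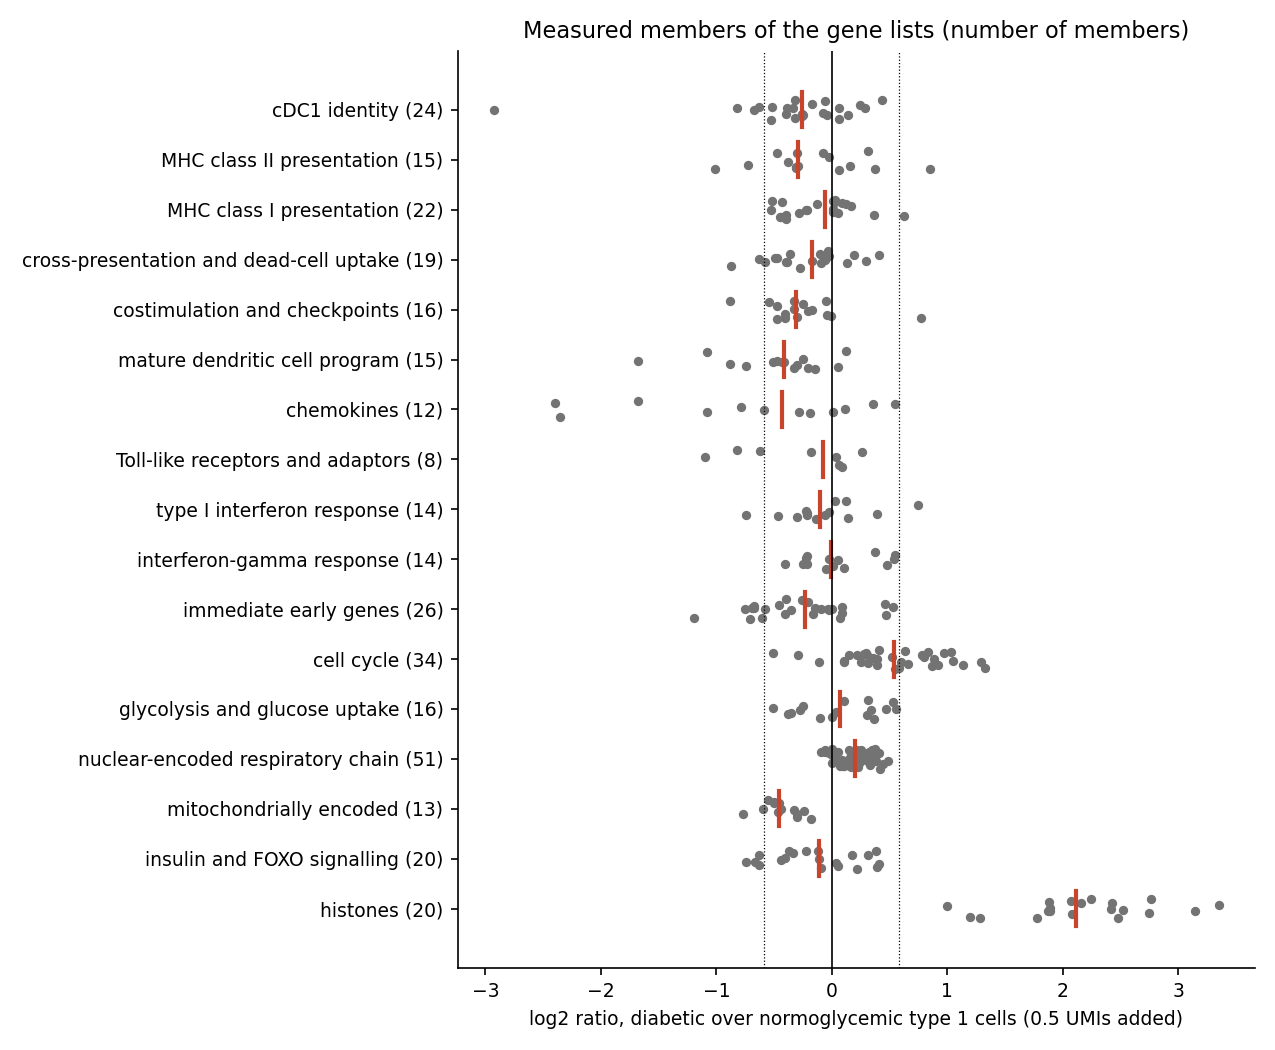
Log2 ratio, diabetic over normoglycemic, of each measured member (grey point) of 17 gene groups in type 1 cells, with the median as a red bar and dotted lines at 1.5-fold. The 20 histones all lie to the right of the dotted line with a median of 2.12, the cell cycle genes have a median of 0.54, and the 13 mitochondrially encoded genes all lie left of 0 with a median of -0.46.

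Cd207 showed the largest difference among the named lower genes. In the normoglycemic library 53 of 174 type 1 cells held a UMI of it and 20 held 10 or more, with a highest cell of 90 UMIs. In the diabetic library 27 of 178 held one, 2 held 10 or more, and the highest cell had 12. The level was 200.4 against 26.29 CPM, a ratio of 0.131 (0.105 to 0.162). After thinning to 2000 UMIs, a UMI was left in 27 normoglycemic cells (15.5%, 10.5 to 21.8) and in 9 diabetic cells (5.06%, 2.34 to 9.38), a difference of -10.5 points (-17.0 to -4.16). No thinned B cell did, 0 of 324 and 0 of 168, which, with 3 counts as the limit of a count of 0, allow shares of up to 0.926% and 1.79%. Type 2 cells went from 185.5 to 5.26 CPM. All other cells stood at 64.04 and 32.82 CPM, so the gene was lower in the rest of the diabetic library as well.

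The gene lies at chr6:83671215-83677857. Its promoter is shown because langerin marks a subset of type 1 cells, and the share of cells with a Cd207 UMI was unequal between the libraries. Among the cells with such a UMI, Cd207 itself went from 680.9 to 172.2 CPM. Whether the subset was smaller in the diabetic library or held less Cd207 a cell was not tested. The 250 bases before the start (chr6:83677858-83678107, minus strand, RefSeq GRCm38.p6) held 1 match to TGANTCA, in capitals, in the last 7 bases.
Cd207: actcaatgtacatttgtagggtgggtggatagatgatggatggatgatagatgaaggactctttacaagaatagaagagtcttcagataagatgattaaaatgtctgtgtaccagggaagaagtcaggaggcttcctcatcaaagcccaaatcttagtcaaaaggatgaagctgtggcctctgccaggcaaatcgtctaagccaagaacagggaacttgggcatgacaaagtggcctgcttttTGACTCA
The same motif was in 1 of 13 matched promoters of the named lower genes, which is this one, and in 6.75% of all promoters.

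Cells with a Cd207 UMI differed from the other type 1 cells in the same way in both libraries. This split was made on Cd207 itself, so it is a description. Apart from the markers Irf8 and Naaa, the genes were picked from those that differed in both libraries. They were picked after their values were seen and not in order of size. Epcam, an adhesion molecule also found on Langerhans cells, stood at 686.4 and 623.8 CPM in cells with Cd207 against 132.4 and 141.2 CPM in the rest, normoglycemic first. Cldn1, a tight junction gene, stood at 197.0 and 119.5 against 26.63 and 22.79 CPM, Dnase1l3 at 154.5 and 96.65 against 33.19 and 32.61, and Tnfaip2 at 381.1 and 388.3 against 130.5 and 108.9. Itgae was at 309.0 and 230.2 against 158.6 and 151.0 CPM. Irf8 was at 1016 and 774.9 against 925.2 and 802.9 CPM and Naaa at 1394 and 1483 against 1419 and 1354 CPM, so these markers differed little. Median depth was 20454 and 21580 UMIs in cells with Cd207 and 19556 and 19215 in the rest.

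Several genes were lower in cells with Cd207 in both libraries. Plac8 stood at 7.401 and 98.40 CPM against 189.5 and 444.2, and Ccr2, the receptor that brings cells from blood, at 107.3 and 103.7 against 272.5 and 217.8. Il1rn was at 20.35 and 1.757 against 186.8 and 63.64 CPM, Ptgs2 at 16.65 and 36.90 against 317.7 and 246.9, and Inhba, the activin A subunit, at 1.850 and 5.272 against 108.8 and 76.62. In the normoglycemic library 5 of 53 cells with Cd207 also held a Plac8 UMI, against 60 of 121 without. In the diabetic library these were 11 of 27 and 101 of 151.

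Plac8, a small cysteine-rich protein of myeloid and lymphoid cells, was higher in the diabetic library over all type 1 cells, at 391.4 against 135.9 CPM, a ratio of 2.88 (2.60 to 3.19). A UMI was found in 112 of 178 diabetic and 65 of 174 normoglycemic cells. After thinning the shares were 32.6% in the diabetic and 15.5% in the normoglycemic library, a difference of 17.1 points (8.17 to 25.6). B cells, which can express the gene, held a Plac8 UMI in 34.6% of normoglycemic and 28.0% of diabetic cells after thinning, at a median depth of 4973.5 and 4547.5 UMIs before it, so they give no background near 0. Type 2 cells had a ratio of 1.92 (1.80 to 2.05) and all other cells went from 306.9 to 382.6 CPM.

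Of 66 histone genes in the matrices, 20 were measured in type 1 cells. All 20 were at least 1.5-fold higher in the diabetic library, with a median log2 ratio of 2.12. They made up 20 of the 203 higher genes. A gene counts as measured by its level in either library. Members such as Hist1h1d, Hist1h3e, Hist1h3c and Hist1h4h, under 20 CPM in normoglycemic cells, entered through the diabetic library and could not count as lower. Hist1h2ap, a core histone H2A gene, went from 82.25 to 559.3 CPM, a ratio of 6.80 (6.03 to 7.70), with a UMI in 14.4% and 34.3% of cells. The linker histone genes Hist1h1d (11.44 to 77.80 CPM, ratio 6.80), Hist1h1e (45.75 to 255.1, ratio 5.58), Hist1h1b (117.4 to 524.5, ratio 4.47) and Hist1h1c (35.68 to 132.8, ratio 3.72) moved alike. Hist1h3e, Hist1h4d, Hist1h2ae, Hist1h3c and Hist1h4h had ratios of 5.81, 4.22, 3.68, 4.25 and 3.70, and Hist1h2ak of 2.44. Histone genes are near copies of each other, so how reads were divided among them is uncertain, and their sum is the safer measure: 670.2 against 2953 CPM, a ratio of 4.41 (4.22 to 4.61).

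Histone transcripts were higher in other cells of the diabetic library too. The ratio of the sum was 3.02 (2.88 to 3.18) in type 2 cells, 1.75 (1.60 to 1.91) in mature dendritic cells, 5.02 (4.65 to 5.43) in B cells and 2.55 (2.50 to 2.59) over all cells that are not type 1. Gm42418, a transcript that overlaps ribosomal RNA repeats, moved with it, at 4345 and 9519 CPM in type 1 cells (ratio 2.19) and 7962 and 19674 CPM in the other cells (ratio 2.47). Histone mRNAs of dividing cells mostly lack a poly(A) tail, the feature this assay captures, and the part of library-wide changes in the histone values was not tested.

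All 4 linker histone genes named lie in the histone cluster of chromosome 13, and their promoters are shown because the genes moved together and share sequence. The 130 bases before the start are printed from RefSeq (GRCm38.p6), with AAACACA, the box of linker histone genes, and CCAAT in capitals on either strand (CCAAT on the opposite strand reads ATTGG). They lie at chr13:21780626-21780755 (Hist1h1b, minus strand), chr13:23738677-23738806 (Hist1h1c, plus), chr13:23554902-23555031 (Hist1h1d, plus) and chr13:23622559-23622688 (Hist1h1e, minus).
Hist1h1b: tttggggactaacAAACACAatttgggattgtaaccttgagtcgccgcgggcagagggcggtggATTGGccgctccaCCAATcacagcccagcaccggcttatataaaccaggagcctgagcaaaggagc
Hist1h1c: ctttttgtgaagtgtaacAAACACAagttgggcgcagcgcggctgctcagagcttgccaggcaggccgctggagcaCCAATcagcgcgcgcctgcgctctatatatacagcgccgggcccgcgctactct
Hist1h1d: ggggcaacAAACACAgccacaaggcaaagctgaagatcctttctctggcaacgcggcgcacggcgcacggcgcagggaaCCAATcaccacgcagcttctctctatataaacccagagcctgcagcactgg
Hist1h1e: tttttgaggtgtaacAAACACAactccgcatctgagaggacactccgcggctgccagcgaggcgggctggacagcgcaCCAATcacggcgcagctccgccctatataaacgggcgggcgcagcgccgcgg
AAACACA began 117, 112, 122 and 115 bases before the start in these 4, on the gene's strand, and a CCAAT began 53, 54, 51 and 52 bases before it. Over the 250 bases, 4 of 4 held AAACACA, against 6.25% of all promoters, and 17 of the 18 measured histone genes with a promoter in the table held CCAAT, against 33.8%. These letters belong to the histone family and say nothing of the difference between conditions.

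Dividing cells carried most histone UMIs. A cell was called cycling with at least 3 UMIs summed over 10 genes of late cell cycle phases, such as Mki67 and Top2a. The call fell on 37 normoglycemic type 1 cells (21.3%, 15.4 to 28.1) and 50 diabetic ones (28.1%, 21.6 to 35.3), a difference of 6.83 points (-2.20 to 15.7), within counting error. Thinned to 2000 UMIs, cells with a UMI of those 10 genes were 19.5% and 28.7%, 9.11 points apart (0.156 to 17.9). Type 2 cells were cycling in 18.2% and 14.8%. Summed over cycling cells, histone transcripts went from 2142 to 7437 CPM, a ratio of 3.47 (3.31 to 3.64), and the 10 cycling genes from 2262 to 2436 CPM, a ratio of 1.08 (1.02 to 1.14). Cell by cell, the histone level of cycling cells had a median of 668.0 CPM (0 to 9313) in normoglycemic and of 7243 CPM (0 to 19658) in diabetic type 1 cells. The cut of 3 UMIs took in cells barely past it in both libraries. The share of such cells was not made equal, and the medians depend on it. In cells that were not cycling the summed histone level went from 126.1 to 325.9 CPM (ratio 2.58, 2.27 to 2.95).

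**Figure D4:**
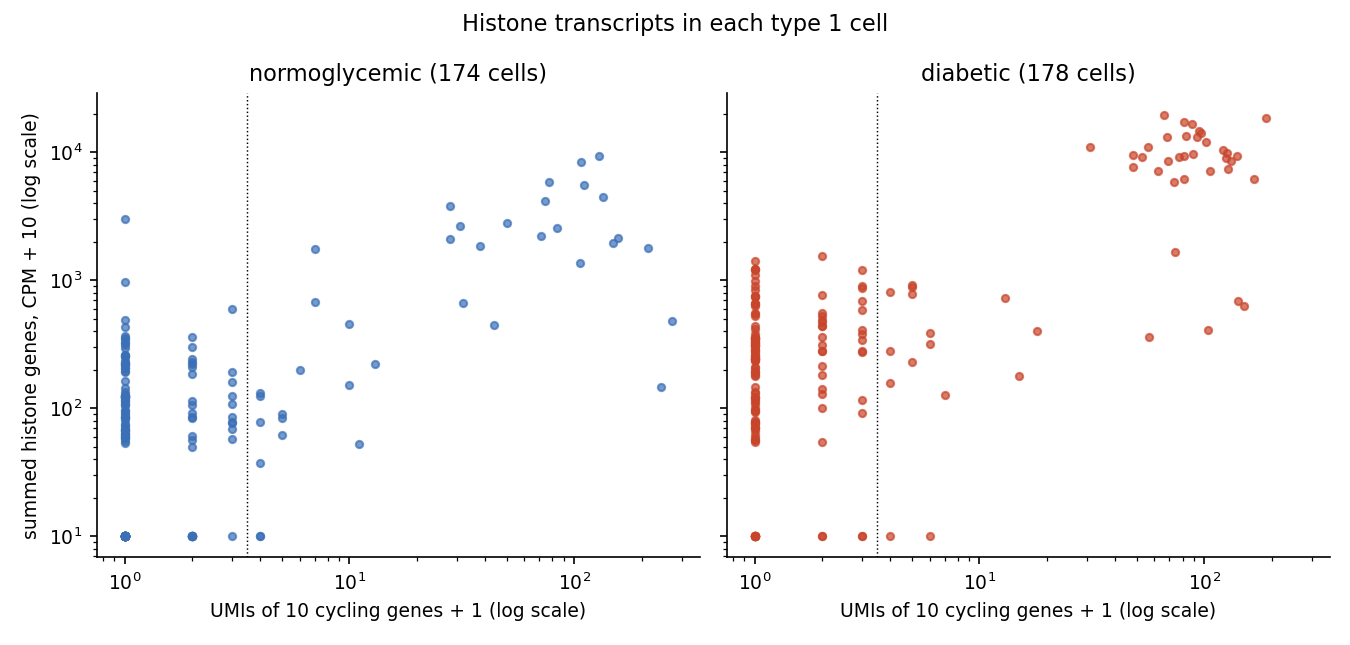
Summed histone level (CPM plus 10, log axis) of each type 1 cell against its UMIs of 10 cycling genes (plus 1, log axis), with the cycling cut as a dotted line. Many diabetic cycling cells form a group near 10000 CPM. The median of cycling cells is 7243 CPM in the diabetic and 668.0 CPM in the normoglycemic library, where the highest value is 9313 CPM. Both medians include cells barely past the cut.

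Among other cell cycle genes, 15 of 34 measured were at least 1.5-fold higher and 0 lower, 19 lay between, and the median log2 ratio was 0.54, beside 4 of 24 higher in type 2 cells (0.29). Without the cycling cells 0 were higher and 2 lower, with a median of -0.05. The cycling call used genes of this list, such as Mki67 and Ube2c, so that outcome was in part fixed by the split. In the remaining cells Mki67 stood at 6.341 and 5.531 CPM, below the measured level. After thinning of all type 1 cells to 2000 UMIs 9 were higher and 1 lower, with a median of 0.31. Pclaf, a clamp-associated factor of DNA replication, went from 104.3 to 261.3 CPM (ratio 2.50, 2.22 to 2.83), Tk1, thymidine kinase, from 11.98 to 29.51, and Mki67, named after its values were seen, from 122.0 to 250.3. The most abundant members lay within 1.5-fold: H2afz (3400 to 4193 CPM), Hmgb2 (826.0 to 1086), Tubb5 (549.3 to 703.7) and Tuba1b (419.4 to 521.8). Ube2c and Cenpa, genes of mitosis, had the smallest ratios, 0.704 and 0.818. Compared with type 2 cells, 21 of the 30 cell cycle genes measured there were at least 1.5-fold higher in type 1 cells in both libraries and 0 lower, beside 7.58% and 14.9% of all genes.

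Besides histones, Pclaf and Plac8, the named higher genes were Ddit4 and Gm10076. Ddit4, an inhibitor of mTOR signalling induced by stress and glucocorticoids, went from 17.16 to 59.29 CPM, a ratio of 3.46 (2.60 to 4.65), with a UMI in 21.8% and 37.6% of cells. It was also higher in type 2 cells (72.26 to 198.3 CPM). Gm10076, a predicted gene present in over 97% of cells of both libraries (98.3% and 97.8%), went from 265.0 to 767.2 CPM, and in type 2 cells from 238.3 to 701.5 CPM.

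Several named lower genes rested on few cells. Mfge8, a bridge between dying cells and phagocytes, went from 69.17 to 9.926 CPM, a ratio of 0.144 (0.0988 to 0.203). It was found in 18 normoglycemic and 19 diabetic cells, and 1 normoglycemic cell held 32.3% of its UMIs and 3 held 81.9%. Without the UMIs of the 3 highest cells of each library the ratio was 0.364. Ccl17, a chemokine for type 2 T cells, went from 180.0 to 56.07 CPM, a ratio of 0.312 (0.265 to 0.364), with 24.1% and 36.4% of its UMIs in the highest cell. Its companion Ccl22 went from 56.37 to 26.56 CPM, with a UMI in 34 and 20 cells. Cldn1 was more widely spread, found in 65 and 54 cells, and went from 76.80 to 37.56 CPM.

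Others were spread over many cells. Fosb, an immediate early AP-1 factor, went from 384.0 to 167.7 CPM (ratio 0.437, 0.397 to 0.480), found in 154 and 140 cells, and thinned shares were 47.1% and 31.5%, -15.7 points apart (-25.4 to -5.46), beside 20.7% and 29.2% of B cells. Ass1, which makes the arginine precursor argininosuccinate, went from 169.7 to 80.75 CPM (ratio 0.476, 0.413 to 0.547), found in 143 and 96 cells, with thinned shares of 28.2% and 8.99%, -19.2 points apart (-27.0 to -11.2), beside 3.09% and 1.79% of B cells. Mat2a, which makes the methyl donor S-adenosylmethionine, went from 83.06 to 39.70 CPM, and Tob1, an antiproliferative factor, from 52.83 to 23.61. Txndc16, one of the genes far above type 2 cells, went from 224.1 to 105.4 CPM (ratio 0.470). Its thinned shares of 19.0% and 11.8%, beside 1.98% and 1.55% of type 2 cells, were -7.17 points apart (-14.8 to 0.401). B cells had similar shares of 17.3% and 12.5%, -4.78 points apart (-10.9 to 2.16). Mpp7 (69.99 to 26.83 CPM), Tmco3 (56.92 to 25.22), Gcnt2 (106.5 to 53.92) and the predicted gene Gm26917 (56.37 to 13.68) complete the 15. Gm26917 was less evenly spread, with 17.9% of its normoglycemic UMIs in 1 cell and 38.65% in 3 cells.

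Side by side with type 2 cells, 14 of the 15 named higher genes and 9 of the 15 named lower genes were also past 1.5-fold in the same direction there. Pclaf was the higher gene that was not, at a ratio of 1.37 in type 2 cells. Ccl17 had a ratio of 0.901 (0.856 to 0.949) in type 2 cells, Ccl22 0.744, Tob1 0.916, Txndc16 0.822, Gm26917 0.706 and Gcnt2 1.25. The difference between the 2 classes was not tested. Type 1 and type 2 cells come from the same 2 libraries, so they do not vary independently.

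**Figure D5:**
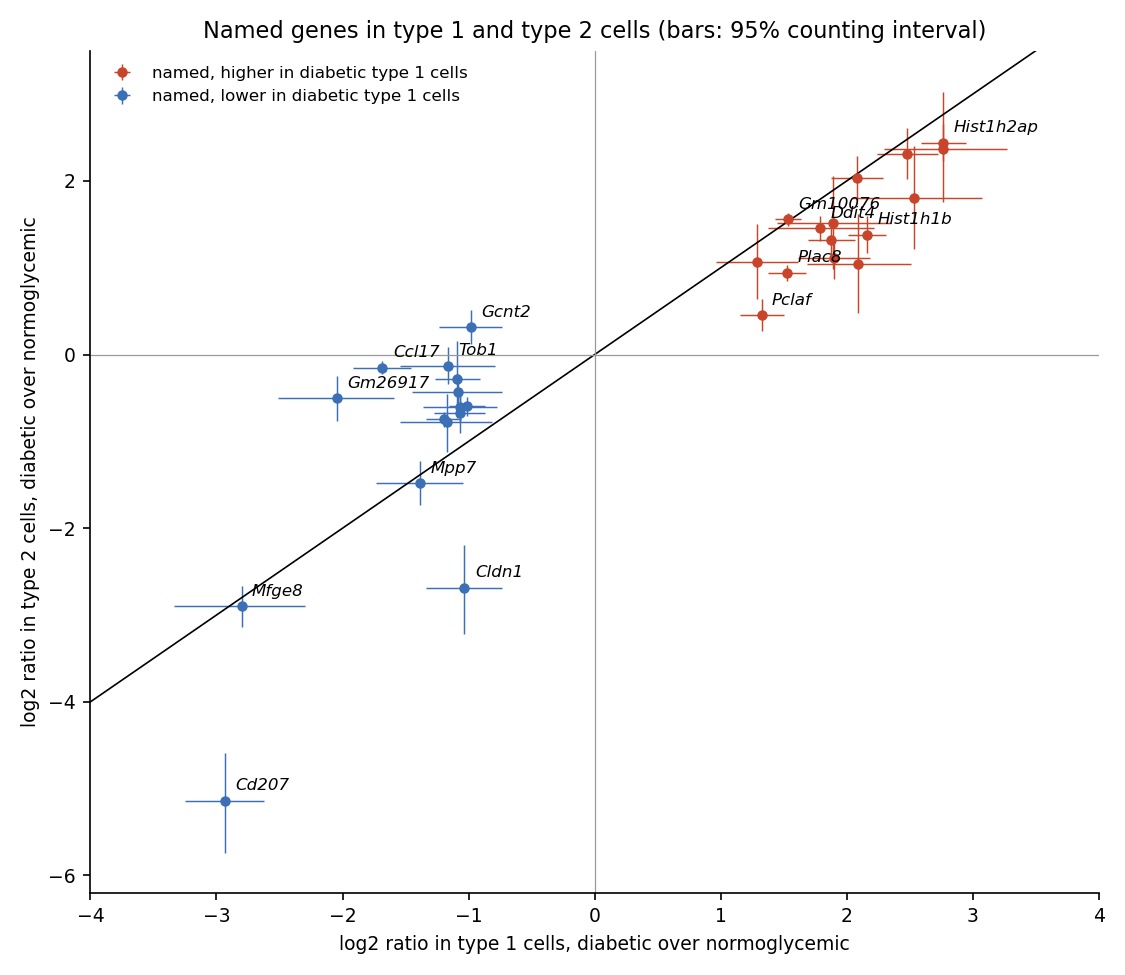
Log2 ratio, diabetic over normoglycemic, of the 30 named genes in type 1 cells (x axis) and type 2 cells (y axis) with 95% counting intervals and the line of equality. Histone genes and Gm10076 lie to the upper right in both classes, Cd207 and Mfge8 to the lower left, and Ccl17, Tob1 and Gcnt2 lie near or above 0 in type 2 cells.

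The 12 measured genes of the chemokine list had a median log2 ratio of -0.43, with 0 higher and 5 lower by 1.5-fold. Neutrophil markers moved with them: a list of 14 such markers summed to 1840 and 1020 CPM in type 1 cells, with 6 of its 7 measured genes at least 1.5-fold lower, beside 52788 and 49598 CPM in the other cells. The part of that in the chemokine values was not tested. Cxcl2, a neutrophil attractant, went from 1806 to 1049 CPM, against 36274 CPM in the other normoglycemic cells. Cxcl1, outside the list and given after its values were seen, went the other way, from 52.83 to 203.6 CPM. The other diabetic cells held 1715 CPM of it. Its thinned shares were 4.02% in the normoglycemic and 8.43% in the diabetic library, 4.40 points apart (-0.789 to 9.82). Ccl3 went from 415.9 to 81.28 CPM, a ratio of 0.195 (0.172 to 0.221), with 17.4% of its normoglycemic UMIs in 1 cell, and Ccl5 from 45.75 to 8.584 CPM, with 85.1% in 1 cell. Ccl4 (845.1 to 1084 CPM), Cxcl16 (296.6 to 259.9) and Cxcl10 (41.67 to 61.16, ratio 1.47) were within 1.5-fold. A single normoglycemic cell held 20.05% of the Ccl4 UMIs of its library. Without the UMIs of the 3 highest cells of each library, Ccl4 went from 561.8 to 900.0 CPM, a ratio of 1.60. Cxcl9, which draws CXCR3+ T cells, was at 144.3 and 145.7 CPM, found in 28 and 20 cells, with 22.6% and 24.5% of UMIs in the highest cell.

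Of 7 measured cytokine genes 0 were higher and 2 lower, Tnf (81.16 to 23.88 CPM) and Il1rn (137.8 to 54.19 CPM). The other normoglycemic cells held more of both, 654.4 CPM of Tnf and 2347 CPM of Il1rn. Il1b was the most abundant at 1833 and 2070 CPM (ratio 1.13), and Tgfb1 (163.7 to 137.9) and Il18 (34.86 to 43.73) were within 1.5-fold. Il12b, the interleukin 12 subunit by which type 1 cells drive type 1 immunity, was below the measured level and is given after its values were seen: 10 of 174 normoglycemic cells held 33 UMIs, 11 of them in 1 cell, and 0 of 178 diabetic cells held any, which, taking 3 counts as the limit of a count of 0, allows a share of cells with a UMI of up to 1.69%.

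Maturation markers were low by rule. Of 15 measured members of the maturation list 0 were higher and 4 lower by 1.5-fold (Ccl17, Ccl22, Cd80 and Marcksl1), 11 lay between, and the median log2 ratio was -0.41. Of the 4, Ccl22 had a log2 ratio of 0.11 after thinning and Ccl17 one of 0.26 in cells called male. Marcksl1, a cytoskeletal regulator, went from 278.1 to 165.8 CPM. Traf1 (245.9 to 255.7 CPM), Cd86 (188.7 to 152.9) and Birc2 (ratio 1.09) lay within 1.5-fold. Cells with 1 or 2 UMIs of Ccr7 and Fscn1 were 7 in each library. Outside the rule, mature cells that also held at least 2 UMIs of Xcr1 and Clec9a were 13 of 127 in the normoglycemic (10.2%, 5.56 to 16.9) and 1 of 120 in the diabetic library (0.833%, 0.0211 to 4.56), -9.40 points apart (-15.9 to -3.81). Those 13 cells held 1635 CPM of Cxcl9 and 285.6 CPM of Il12b beside 1584 CPM of Ccr7, values noticed on inspection.

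Most interferon response genes lay within 1.5-fold. Among 14 type I interferon response genes, 1 was higher and 1 lower, with a median log2 ratio of -0.10. Ifitm3, an antiviral membrane protein, was higher (311.8 to 523.6 CPM, ratio 1.68, 1.56 to 1.81), below its level of 1215 CPM in other diabetic cells. Irf7, the amplifier of the response, was lower (79.25 to 47.21 CPM, ratio 0.596), with 23.4% and 31.8% of its UMIs in the highest cell. Ifi27l2a (258.5 to 339.4 CPM), Bst2 (158.5 to 172.8), Trim30a (154.1 to 151.6) and Xaf1 (ratio 0.723) were within 1.5-fold. Of 14 interferon-gamma response genes 0 passed 1.5-fold in either direction, with a median of -0.01. Psmb9 went from 491.0 to 509.2 CPM, Socs3 from 203.2 to 282.7, Icam1 from 181.1 to 136.8, and Serpina3g and Cd274 had ratios of 1.46 and 0.840.

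Receptors of cytokines and chemokines also lay mostly within 1.5-fold. Of 17 cytokine receptor genes 0 were higher and 1 lower, Csf2rb2 (22.33 to 14.75 CPM). Ifngr1 had a ratio of 1.25 (258.2 to 322.5 CPM), the GM-CSF receptor genes Csf2rb and Csf2ra 0.987 and 0.850, Ifnar2 1.12 and Il10ra 0.686. Of 12 chemokine and migration receptors 0 were higher and 2 lower, Ptger4, a prostaglandin E2 receptor (41.12 to 23.61 CPM), and Ccr1 (26.42 to 15.83). Gpr183, the oxysterol receptor that positions dendritic cells, went from 288.4 to 249.5 CPM, Gpr171 from 244.0 to 234.2, Ccr2 from 223.9 to 200.4 and Cxcr4 from 81.43 to 83.43.

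Most genes of the respiratory chain lay within 1.5-fold. All 13 mitochondrially encoded genes had ratios below 1, with 2 at least 1.5-fold lower, mt-Nd3 (367.7 to 216.0 CPM) and mt-Nd6 (23.15 to 15.29), and a median log2 ratio of -0.46. Type 2 cells had -0.51. mt-Co3 went from 4392 to 3002 CPM, mt-Co1 from 4308 to 3496, mt-Co2 from 3612 to 3188, mt-Atp6 from 2932 to 2377 and mt-Cytb from 1680 to 1422. Of 51 nuclear genes of the respiratory chain 0 passed 1.5-fold, 46 had ratios above 1, and the median was 0.20. Atp5g1 and Ndufa5 had the largest ratios (1.40 and 1.36) and Atp5b and Ndufa3 the smallest (0.937 and 0.958). Ribosomal protein genes had a median of 0.08 over 58, with 0 past 1.5-fold, from Rps2 and Rps20 (1.24 and 1.20) to Rps27 and Rpl39 (0.875 and 0.910).

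No glycolysis gene passed 1.5-fold in either direction, 0 of 16, with a median log2 ratio of 0.07. Pkm, pyruvate kinase, had the largest ratio (245.1 to 361.6 CPM, 1.48, 1.35 to 1.61), ahead of Pfkl (1.45). Gapdh went from 792.0 to 980.0 CPM and Ldha from 473.3 to 598.0, while Pfkp went from 280.2 to 218.9, and Hk2 and the glucose transporter gene Slc2a1 had the smallest ratios, 0.7002 and 0.770. Insulin and FOXO signalling, the pathway behind the mouse line, had 0 of 20 higher and 4 lower by 1.5-fold, with a median of -0.11. The 4 were Klf4 (297.7 to 177.9 CPM), Klf2 (297.4 to 192.6), Trib1 (250.6 to 162.3) and Txnip, a brake on glucose uptake (46.57 to 29.24). Pik3r5 and Pik3cd had the largest ratios (1.33 and 1.31).

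Immediate early genes had 0 of 26 higher and 7 lower by 1.5-fold, with a median log2 ratio of -0.23, and type 2 cells 1 of 28 higher and 6 lower. Beside Fosb, Btg1, an antiproliferative gene, went from 2384 to 1419 CPM (ratio 0.595). Junb (1293 to 1274 CPM) and Jund (1454 to 1264) lay within 1.5-fold, and Nfkbia, Dusp2 and Zfp36 had ratios of 1.38, 1.44 and 1.39. Heat shock and unfolded protein response genes had 0 of 21 higher and 4 lower, among them Hspa1a (385.4 to 240.9 CPM) and Dnajb1 (155.0 to 98.18). Hspa8 went from 2155 to 1778 CPM, Hsp90ab1 from 2120 to 1982, Hspa5 from 670.2 to 765.1 and Hsp90aa1 from 648.2 to 530.9, and Sdf2l1 and Herpud1 had ratios of 1.24 and 1.22. In type 2 cells 6 of the 21 were at least 1.5-fold higher.

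Of 19 survival and death genes 0 were higher and 3 lower. Bcl2l1, which encodes the survival protein BCL-XL, went from 32.95 to 15.02 CPM (ratio 0.456, 0.326 to 0.631), Bcl2a1d from 183.6 to 112.4 and the death inducer Pmaip1 from 194.7 to 122.6. Mcl1 was the most abundant at 749.8 and 682.5 CPM, Bcl2a1b went from 211.6 to 172.2, and Bcl2a1a and Ripk1 had ratios of 1.47 and 1.44. Bcl2a1 genes are near copies, so their separate values are uncertain.

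Among 22 antioxidant and metallothionein genes 3 were higher and 1 lower. Mt2 went from 32.14 to 143.0 CPM, with 26.1% of its diabetic UMIs in 1 cell, Mt1 from 570.3 to 959.6 (ratio 1.68, 1.59 to 1.78), and Prdx4, named after its values were seen, from 33.50 to 50.43. Slc7a11, the cystine importer, went from 47.93 to 24.95 CPM and Cat had a ratio of 0.752. Fth1 (4669 to 4900 CPM), Ftl1 (2190 to 1882) and Gpx1 (918.1 to 976.7) lay within 1.5-fold.

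Most adhesion and lysosomal genes lay within 1.5-fold. Of 18 integrin and adhesion genes, 16 had ratios below 1, with 1 higher and 2 lower by 1.5-fold. Itgam (CD11b), usually absent from type 1 cells, went from 21.51 to 37.56 CPM, against 225.7 and 304.1 CPM in type 2 cells. Cdh1, E-cadherin, went from 22.88 to 2.683 CPM, found in 24 and 6 cells, and Itgal from 75.17 to 46.68. Cd9 (639.5 to 473.8 CPM), Cd44 (423.8 to 308.2), Cd81 (314.6 to 235.3) and Jaml (283.5 to 213.0) were within 1.5-fold, and Itgb1 had a ratio of 1.03. Of 19 lysosomal genes 2 were higher (Lgmn and Ctsl) and 1 lower, Ctsd, cathepsin D (38.67 to 13.68 CPM, ratio 0.354, 0.252 to 0.490), while Psap, the saposin precursor, went from 2488 to 2269 CPM. Of 16 S100, annexin and cytoskeletal genes 1 was higher, Lgals3 (954.8 to 1494 CPM, ratio 1.56, 1.499 to 1.63), and 0 lower. Tmsb4x (32443 to 34208 CPM), Crip1 (7875 to 8680), Vim (4861 to 5817) and Tmsb10 (4105 to 4653) were the most abundant, S100a6 had a ratio of 1.30, and Anxa5 and Anxa6 had 0.911 and 0.9496.

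Markers of other cells were present at low levels. Any UMI of Cd209a, Mgl2 or Clec10a was found in 49 of 174 normoglycemic (28.2%, 21.6 to 35.5) and 28 of 178 diabetic type 1 cells (15.7%, 10.7 to 21.9). Cd209a went from 31.59 to 2.146 CPM, with 41.4% of its normoglycemic UMIs in 1 cell, and Mgl2 from 43.85 to 22.80. At least 5 UMIs of other lineages, mainly S100a8 and S100a9 of neutrophils, were held by 150 and 135 cells. S100a9 went from 860.3 to 536.8 CPM, S100a8 from 591.8 to 290.5 and Lcn2 from 136.7 to 15.02, with 38.4% of its normoglycemic UMIs in 1 cell, while G0s2 had a ratio of 1.09. Cd3e and Cd79a were at 0 by rule, and Ms4a1 and Klk1 were at 0 in both libraries. T and NK markers summed to 34.04 and 11.27 CPM and plasmacytoid markers, mostly Bst2 and Tcf4, to 252.5 and 258.6 CPM. Macrophage markers summed to 268.5 and 276.3 CPM, with Arg1 at 9.260 and 66.53 CPM and 67.7% of the latter in 1 cell. Monocyte markers summed to 1698 and 1708 CPM, and Lyz2 went from 1233 to 1001.

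Salivary and epithelial transcripts appeared in the diabetic library. Langerhans and epithelial markers summed to 330.9 and 422.5 CPM in type 1 cells and to 217.3 and 5422 CPM in the other cells. Epcam alone gave 295.5 and 214.9 CPM of the sums in type 1 cells, with a UMI in 71.8% and 70.8% of those cells. Muc5b, a mucin, went from 7 to 433 UMIs, of which 1 diabetic cell held 409. Dcpp1 and Bpifa2, secreted proteins of salivary glands, were at 0 UMIs in the normoglycemic cells and at 141 and 88 UMIs in the diabetic cells, spread over 76 and 44 cells with at most 7 UMIs in a cell. Stromal markers summed to 6.536 and 75.92 CPM, and 118 of 126 diabetic UMIs of Dcn, a matrix proteoglycan, lay in 1 cell. The part of these cells in the other results was not tested.

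Cells of both sexes were present in each pool. A cell with UMIs of a Y-linked gene and none of Xist was called male, and the reverse female. Of type 1 cells with a call, 83 of 149 normoglycemic (55.7%, 47.3 to 63.8) and 50 of 144 diabetic cells (34.7%, 27.0 to 43.1) were female, -21.0 points apart (-31.6 to -9.60), and type 2 cells had 45.6% and 26.1%. Cd207, Hist1h2ap, Hist1h1b and Fosb differed in the same direction within each sex. Cd207 had a ratio of 0.195 in male (130.1 to 25.34 CPM) and 0.164 in female cells (228.5 to 37.50 CPM). Hist1h2ap had ratios of 8.43 and 5.88, Hist1h1b of 4.05 and 4.66, and Fosb of 0.541 and 0.353. Plac8 was unequal: it went from 236.3 to 437.7 CPM in male cells (ratio 1.85, 1.64 to 2.10) and from 41.28 to 328.2 CPM in female cells (ratio 7.95). Ccl17 went from 43.57 to 52.17 CPM in male and from 178.3 to 95.63 CPM in female cells. Ass1 had ratios of 0.509 and 0.413, and H2-Eb1 of 0.449 and 0.818, so the latter passed 1.5-fold in male cells alone. These splits leave 66 and 94 male and 83 and 50 female cells, and the differences between the sexes were not tested.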

How the data were processed

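RNA of single gingival cells was measured on 1 normoglycemic and 1 diabetic library of 4 pooled mice each. The deposited matrices hold raw UMI counts per gene and barcode, made by the authors with Cell Ranger 4.0.0 per the file headers (6.0.2 per the submitters' processing notes) on mm10, for 32285 genes. Barcodes with at least 500 UMIs, 200 genes and at most 15% mitochondrial UMIs were kept, 10948 of 11280 normoglycemic and 10260 of 10496 diabetic ones, from libraries of 89339733 and 78220582 UMIs. No doublet caller was run, and 0 type 1 cells exceeded 3 times the median UMIs of their class. That limit says little of doublets. The class medians were 19926.5 and 19701.5 UMIs, against 5302.5 and 4631.5 over all kept cells. A type 1 cell joined with a typical cell could thus stay below it.

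Counts were summed over the cells of a class and divided by their total. Ratios carry exact conditional binomial 95% intervals, shares Clopper-Pearson intervals and differences of shares Newcombe intervals. These cover counting error only. Log2 ratios had 0.5 counts added. With 1 library a group no test was made. Measured genes had at least 20 CPM in either library. Genes were named by size: at least 50 CPM and 50 UMIs in the higher library, a UMI in 5% of its cells, 0.5 times the level of its other cells, an interval wholly beyond 1.5-fold, no sex-linked, immunoglobulin or T cell receptor gene, and up to 15 in each direction ranked by the bound nearer 1. For each list the 4 most abundant members and 2 at each end were named, and genes outside these rules are marked. Up to 15 genes over and 10 under type 2 cells were named with at least 50 CPM in both libraries. Members and lists were chosen with earlier results of these data known. Other cell rules, edgeR 4.0.16 and DESeq2 1.42.0 scaling factors, thinning, filters and pseudocounts were tried as alternatives. The computations were tested on simulated data and ran in Python 3.11.15 with numpy 2.4.6, scipy 1.17.1 and pandas 2.3.3. Promoters came from RefSeq. A few genes of the lists are not reported here by name.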

Additional observations from a re-analysis of the deposited data

Results flagged for a closer look

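Hist1h2ak, one of the named histone genes, differed between the libraries in opposite directions in cells called male and cells called female. It went up in male cells, with a ratio of 10.6, and down in female cells, from 55.04 to 21.56 CPM, a ratio of 0.392. The difference between the sexes was not tested, and 1 normoglycemic cell held 30.1% of the 113 UMIs there.

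The matrices also hold 4 antibody features that no comparison here uses. A dominant tag was found on 8 of 174 normoglycemic (4.60%) and 8 of 178 diabetic type 1 cells (4.49%), beside 4.24% and 2.48% of all cells. The labels do not say what the tags mark.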

How the results depend on the processing

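No paired analysis was possible because each group has 1 library, and for the same reason no replicate could be left out. The number of genes past 1.5-fold depended on depth and on the filter on low levels. Against 203 higher and 256 lower, a minimum of 100 CPM gave 38 and 55 of 1364 genes, and no minimum gave 2720 and 2814 of 14535. Thinning to 2000 UMIs gave 800 and 928, and Ccl22 changed sign (log2 ratio 0.11). Without cells holding 5 UMIs of another lineage, which left 24 and 43 cells, 895 were higher and 914 lower, and Txndc16 changed sign (0.33). Cells called male gave 397 lower genes, a sign change of Ccl17 (0.26) and a difference in the share with Cd207 of -6.32 points (-19.0 to 5.49). Cells called female gave 698 higher and 617 lower genes and a sign change of Hist1h2ak (-1.33). Fewer cells or UMIs widen the spread of ratios by construction, and the cause of the sign changes was not tested. Over all alternatives, 90 values of these counts and shares stayed within 1.5 times or counting error of the reported ones and 12 did not. Of the values for single genes, 687 stayed, 128 moved and 4 changed sign, and of those for gene lists 554 stayed and 34 moved. The log2 ratio of Cd207 lay between -5.95 and -2.27 and the histone median between 1.5 and 4.26 over all alternatives. The share among dendritic cells differed by 5.15 to 9.5 points. Leaving out tagged barcodes or cells with type 2 marker UMIs were alternatives chosen after seeing the data.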
